A study of Rattus norvegicus with 20 samples.

Results

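The 10 genes described here, Diras3, Clta, Eif3f, Ssr3, Ppp1cc, Suclg1, Itm2b, C1qbp, Spint2 and Scand1, had stepped away from their day 1 level by day 2 in the collecting ducts of control rats and were still away from it at day 4. They were taken by symbol from the 32545 genes of the deposited count table, and each matched 1 row. In a test over the 3 days in control rats they held ranks 1, 2 and 4 to 11 by p. That test called 355 genes, or 2.45% of those tested. Rank 3 was a gene that carries only a locus name. The genes were thus chosen by their measured levels in the control libraries, and their control values are given below as a description, with no test. Over all genes the step in control rats was called for 5.17%, from which nothing is read about genes chosen there. The comparison reported is the same step in the water-loaded rats, whose libraries were no part of the contrast behind the choice. Filter, scaling and spread were estimated over all 20 libraries for that ranking too, so choice and comparison were not fully independent.

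The tissue was the cortical collecting duct, the last tubule segment of the kidney cortex, where vasopressin acting on the V2 receptor makes the principal cells permeable to water. Ducts were microdissected from male Sprague-Dawley rats, 20 in all, 5 weeks old. All 20 animals, controls included, were infused by minipump with DDAVP, an agonist of that receptor, at 5 ng/hr and were fed a gelled diet. The 10 water-loaded rats took 50 mL of water per day, and the 10 control rats 25 mL per day. Each treatment gave 3 ducts at day 1, 4 at day 2 and 3 at day 4, 1 library per rat. No group without DDAVP and none before day 1 is among these samples. Day, time on DDAVP and any batch of dissection or library making that went with the day cannot be told apart. In whole ducts, fewer cells of a type and less RNA per cell cannot be told apart either.

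The 10 genes belong to no single pathway. Spint2 is a Kunitz-type inhibitor of membrane-bound serine proteases, the class of enzyme that can activate the epithelial sodium channel of this segment. Itm2b is a single-pass membrane protein that binds the amyloid precursor protein, Clta is a light chain of the clathrin coat that forms endocytic vesicles, and Ssr3 is a subunit of the complex beside the translocon through which new proteins enter the endoplasmic reticulum. C1qbp is a protein mainly of the mitochondrial matrix, and Suclg1 is the alpha subunit of succinate-CoA ligase in the tricarboxylic acid cycle. Eif3f is a subunit of translation initiation factor 3, Ppp1cc a catalytic subunit of protein phosphatase 1, Diras3 a small GTPase of the Ras superfamily, and Scand1 a short protein with a SCAN domain, a domain through which zinc finger factors pair.

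Since 9 of the 10 genes moved down and Ssr3 moved up, the promoter letters of Ssr3 are shown beside those of C1qbp and Spint2, which were among the genes that fell in both treatments. These are the 250 bases before the annotated start, 5′ to 3′ on the gene's strand, from RefSeq on the GRCr8 build, a later build than the rn6 of the counts. All 3 lie on the minus strand: Ssr3 at chr2:151935163-151935412, C1qbp at chr10:56203186-56203435 and Spint2 at chr1:93708092-93708341. Capitals mark the matches, on either strand, to the motifs described after them.
Ssr3: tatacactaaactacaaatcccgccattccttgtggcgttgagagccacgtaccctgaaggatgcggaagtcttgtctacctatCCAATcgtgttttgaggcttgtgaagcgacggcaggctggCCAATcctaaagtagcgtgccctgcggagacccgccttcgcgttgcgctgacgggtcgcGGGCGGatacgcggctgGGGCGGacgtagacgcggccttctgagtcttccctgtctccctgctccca
C1qbp: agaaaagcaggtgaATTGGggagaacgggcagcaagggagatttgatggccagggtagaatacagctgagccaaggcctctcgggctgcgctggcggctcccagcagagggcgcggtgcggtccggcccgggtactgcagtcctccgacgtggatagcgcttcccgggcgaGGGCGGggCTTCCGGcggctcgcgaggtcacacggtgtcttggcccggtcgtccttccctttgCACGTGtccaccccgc
Spint2: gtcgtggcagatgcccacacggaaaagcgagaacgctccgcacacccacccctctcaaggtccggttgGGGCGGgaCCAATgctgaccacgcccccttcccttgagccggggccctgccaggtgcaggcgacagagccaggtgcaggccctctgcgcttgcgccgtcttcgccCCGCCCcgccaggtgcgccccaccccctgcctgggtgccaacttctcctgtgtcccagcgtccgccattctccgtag

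The motif GGGCGG, the GC box, was in the promoters of 6 of the 10 genes and in 30.5% of the 33469 promoters of the same length in the table. CCAAT was also in 6 of 10, against 34.0% of all. The Ssr3 promoter held both motifs, as did those of C1qbp and Spint2. Of the other genes that fell, Scand1 held both too. Ppp1cc and Itm2b held only the GC box, Eif3f and Clta only CCAAT, and Diras3 and Suclg1 neither. CACGTG, the E-box, was in 2 of 10 (Eif3f and C1qbp) and in 5.59% of all promoters, and CCGGAAG, the ETS core, in 1 of 10 (C1qbp) and in 7.27% of all. TATAAA, the cAMP response element TGACGTCA and the NRF1 core GCGCATGCG were in 0 of the 10 promoters, and in 12.9%, 1.59% and 1.35% of all. These counts describe letters only. GC content ran from 46.4% (Eif3f) to 74.0% (Diras3), and 9 of the 10 promoters were above the median of 51.2% over all promoters.

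In water-loaded rats all 10 genes stepped the same way as in controls. The step is the mean of the fitted log2 levels at days 2 and 4 minus that at day 1. By edgeR's quasi-likelihood test, with Benjamini-Hochberg adjustment over the 14472 genes tested and a threshold of 0.05, 9 of the 10 genes fell and Ssr3, the 1 gene with a higher level, missed the threshold (adjusted p = 0.0552). Of all genes tested 120 were called, or 0.829%. The lower ones numbered 99, or 0.684%, and the higher ones 21, or 0.145%. The median step was -2.62 over the 10 genes and 0.04 over all genes tested. For each of the 10 genes the 3 day 1 libraries did not overlap the 7 later ones, a separation that 1180 genes, or 8.15%, showed (3.53% with the later libraries lower, 4.62% with them higher). In controls, where the genes were chosen, it also held for all 10, and for 7.11% of all genes. Other tests split the calls over all genes differently: 21 rose and 99 fell by edgeR, 649 and 545 by DESeq2, 135 and 124 by limma-voom, and 132 and 66 by limma on log2(FPKM + 1). The 10 genes kept their directions in all 4 tests.

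**Figure D1:**
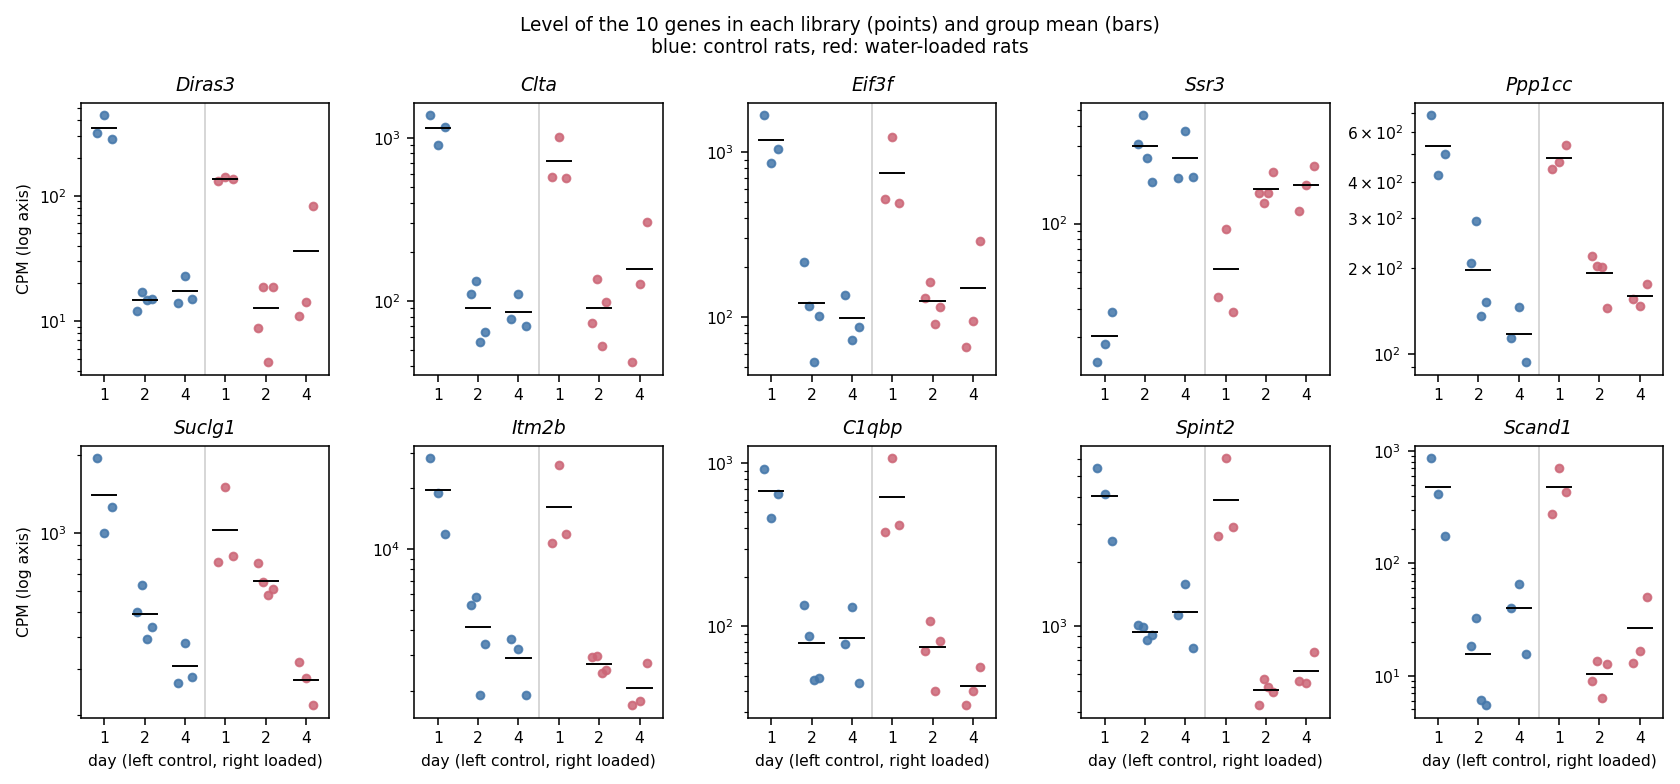
Level of each of the 10 genes in CPM (counts scaled to the size of the library) on a log axis, 1 panel per gene, by day in control rats (blue, left) and water-loaded rats (red, right); points are libraries and bars are group means. In each panel the day 1 points of a treatment do not overlap its points at days 2 and 4, lying above them for 9 genes and below them for Ssr3; the narrowest gap is that of Suclg1 in water-loaded rats, 775.3 against 769.9 CPM.

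Reads on genes numbered 33527913 to 74868598 per library, so that 1 count was worth 0.0134 to 0.0298 CPM. The number of genes detected ran from 12665 to 13669 at day 1, from 13322 to 15266 at day 2 and from 13071 to 14482 at day 4. Within day 2 it was 14490 to 15266 in the libraries numbered 3 and 4, and 13322 to 14373 in numbers 1 and 2. Summed endothelial markers were at 673 to 1019 CPM in numbers 3 and 4 and 103.7 to 448.7 in numbers 1 and 2. Immune markers were at 339.9 to 983.1 and 152.5 to 330.3 CPM. The first control duct and the second water-loaded duct of day 1 stood apart, with 12665 and 12788 genes and scaling factors of 0.645 and 0.686. With the number of detected genes in the model, 4 of the 10 genes were called: Spint2 (edgeR adjusted p = 0.0112), Itm2b, C1qbp and Scand1 (0.0391 each). Over all genes that fit called 8 of the 14472 tested, against 120 without the covariate. Summed markers of the proximal tubule, a neighbouring segment, were at 8319 CPM in the second water-loaded duct of day 1. They were at 174.8 and 103.6 in the other 2, at 61.3 to 400 in the 7 later water-loaded ducts and at 84.1 to 832 in the day 1 control ducts. Control ducts held 173 to 2827 CPM at day 2 and 43.8 to 154 at day 4. Of the 17 proximal tubule markers 16 had a lower fitted level after day 1 in water-loaded rats, and edgeR called 2 (Ass1 and Pck1). With these markers in the model the calls of Diras3 (edgeR adjusted p = 0.0509), Eif3f (0.0886) and Suclg1 (0.10) were lost. That fit called 14 of all genes tested. The second water-loaded duct of day 1 was also the highest of its group in CPM for 9 of the 10 genes, all but Ppp1cc. In the deposited FPKM, which carry no such scaling factor, it was the lowest of its group for Diras3. Without this duct, 6 of the 10 were called: Spint2, Itm2b, C1qbp, Scand1, Ppp1cc and Ssr3. Over all genes 13 of the 15178 tested were called in that fit. The part of detected genes or of proximal tubule RNA in the step was not tested beyond these fits. Markers of principal and of intercalated cells, the cell types of the duct (12 tested of each), were present in every library, at 16137 to 72870 and 12844 to 19079 CPM in sum, and 0 of them were called. Of markers of the loop and distal tubule, fibroblasts, endothelium, immune cells, red blood cells and podocytes, 0 were called too. In that order 8, 6, 9, 11, 3 and 1 were tested, and 2, 4, 9, 6, 2 and 1 had a higher fitted level after day 1. With 0.829% of all genes called, 0 calls among these markers cannot show an equal cell content.

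Spint2 (ENSRNOG00000020636) had the smallest p of all genes tested in the step of water-loaded rats. Its level was 2640, 6019 and 2902 CPM in the 3 water-loaded ducts at day 1. It was 429.6, 571.9, 524.6 and 493.9 at day 2, then 559.4, 547.2 and 761.9 at day 4. All 7 later libraries were far below the lowest at day 1. Spint2 fell by 2.78 on the log2 scale (SE 0.26), 6.87-fold, with an edgeR adjusted p of 2.08e-05. In control ducts its values were 5461, 4098 and 2480 CPM at day 1, 862.7 to 1012 at day 2 and 794.8 to 1573 at day 4, a step of -1.93 (SE 0.26). The later water-loaded ducts thus lay below all the later control ducts, while the day 1 ranges overlapped. How many of all genes were separated like this between treatments was not counted.

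Itm2b (ENSRNOG00000016271) was the most abundant of the 10 genes per unit of length. The deposited FPKM, counts scaled to gene length and library size, averaged 9170 ± 2026 (SD, n = 3) in control ducts at day 1 and 8004 in water-loaded ducts at day 1. In water-loaded ducts its CPM was 10794, 26131 and 11898 at day 1, then 2950, 2966, 2461 and 2534 at day 2 and 1695, 1779 and 2735 at day 4. The 7 later values sat within a narrow band under the 3 day 1 values. Itm2b fell by 2.78 (SE 0.32), 6.85-fold, with an edgeR adjusted p of 0.000209. Control ducts held 11913 to 28144 CPM at day 1 and 1911 to 5819 over days 2 and 4, a step of -2.51 (SE 0.32).

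Clta (ENSRNOG00000014635) was at 570.3, 1010 and 568.7 CPM in water-loaded ducts at day 1. At day 2 the values were 72.84, 135.5, 53.13 and 97.74, and at day 4 they were 42.03, 127.3 and 303.2. The clathrin light chain was lower in all 7 later ducts, least so in the third duct of day 4. Clta fell by 2.59 (SE 0.41), 6.02-fold, with an edgeR adjusted p of 0.00556. In controls it went from 900.9 to 1371 CPM at day 1 to 56.29 to 132.6 later, a step of -3.69 (SE 0.42). Without the second water-loaded duct of day 1 the water-loaded step of Clta was -2.26 and no longer passed (edgeR adjusted p = 0.0818).

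Ssr3 (ENSRNOG00000011148) was the gene that moved up. Water-loaded ducts held 35.46, 92.73 and 28.42 CPM at day 1, 154.5, 133.6, 154.7 and 206.7 at day 2, then 118.7, 172.9 and 225.5 at day 4. Every later value was above every day 1 value. The fitted step was 1.68 (SE 0.41), 3.20-fold, with an edgeR adjusted p of 0.0552, just outside the threshold. It was 2.39 (edgeR adjusted p = 0.0462) without the second water-loaded duct of day 1, which held the highest of the 3 day 1 values. DESeq2 gave 1.61 (adjusted p = 0.00412). Over the 33 alternatives the step ran from 1.39 to 2.39, and only 8 of them passed the threshold. Control ducts held 14.01, 18.25 and 28.68 CPM at day 1, 180.8 to 463.7 at day 2 and 191.8 to 372.6 at day 4, a step of 3.76 (SE 0.47). The size of the step thus differed most between treatments for this gene, by -2.08 (SE 0.54) in water-loaded relative to control rats. That difference shares the control libraries with the choice of the gene and was not tested.

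C1qbp (ENSRNOG00000006949) fell about as far as it had in controls. Its CPM in water-loaded ducts was 381.5, 1072 and 416.4 at day 1, 70.84, 108.5, 40.19 and 81.87 at day 2, then 32.79, 40.27 and 56.67 at day 4. The gap between the lowest day 1 duct and the highest later duct was wide. C1qbp fell by 3.45 (SE 0.40), 10.9-fold, with an edgeR adjusted p of 0.000209. Without the second day 1 duct the step was -2.80 (edgeR adjusted p = 0.00513). The control values were 465.2 to 921.2 CPM at day 1 and 45.3 to 135.9 later, a step of -3.05 (SE 0.40).

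Suclg1 (ENSRNOG00000005587), the other mitochondrial gene, made the smallest step of the 10 in water-loaded rats. Water-loaded ducts held 775.3, 1511 and 816.3 CPM at day 1. They held 769.9, 651.1, 579.6 and 613.4 at day 2, then 319.8, 277.7 and 217.8 at day 4. The highest day 2 duct came within a few CPM of the lowest day 1 duct, so that the separation lay mainly at day 4. Suclg1 fell by 1.30 (SE 0.24), 2.45-fold, with an edgeR adjusted p of 0.0160. This call was lost without the second water-loaded duct of day 1 (-0.92, edgeR adjusted p = 0.271) or the second of day 4 (-1.31, edgeR adjusted p = 0.0517). In controls Suclg1 went from 1001 to 1943 CPM at day 1 to 266.9 to 635.6 later, a step of -1.85 (SE 0.24).

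Eif3f (ENSRNOG00000015221) was at 518.3, 1249 and 490.0 CPM in water-loaded ducts at day 1, 130.4, 164.1, 90.57 and 114.6 at day 2, then 65.66, 94.54 and 288.8 at day 4. The third duct of day 4 was again the highest of the later ones, and still under the lowest of day 1. Eif3f fell by 2.46 (SE 0.43), 5.50-fold, with an edgeR adjusted p of 0.00942. Without the second water-loaded duct of day 1 the step was -1.88 (edgeR adjusted p = 0.218), and without the second of day 4 it was -2.33 (edgeR adjusted p = 0.0517). Control ducts went from 862.7 to 1681 CPM at day 1 to 53.08 to 216.7 later, a step of -3.45 (SE 0.43).

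Ppp1cc (ENSRNOG00000001269) varied least within groups among the 10 genes, with a within-group SD of 0.312 log2 units. Its CPM in water-loaded ducts was 445.6, 471.4 and 538.6 at day 1, 220.8, 203.0, 202.1 and 145.3 at day 2, then 156.1, 147.8 and 175.8 at day 4. The phosphatase subunit was thus at a lower and even level in all later ducts. Ppp1cc fell by 1.47 (SE 0.24), 2.76-fold, with an edgeR adjusted p of 0.00579, and leaving out any 1 library did not end the call. Control ducts held 422.8 to 685.3 CPM at day 1 and 93.64 to 292.2 later, a step of -1.81 (SE 0.24).

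Diras3 (ENSRNOG00000033736) stood first in the ranking over days in controls, where it was at 314.1, 438.6 and 281.7 CPM at day 1, 11.89 to 17.05 at day 2 and 13.99 to 22.93 at day 4, a step of -4.44 (SE 0.50). Water-loaded ducts held 130.0, 141.8 and 135.2 CPM at day 1, 8.77, 18.72, 4.67 and 18.75 at day 2, then 11, 14.22 and 82.91 at day 4. In CPM the day 1 level was even among water-loaded ducts and lower in each than in any control duct, a separation not counted over all genes. In FPKM, which carry no TMM scaling factor, it was less even, at 237.4, 162.3 and 232.9. Control ducts were at 337.4 to 694.6 FPKM at day 1. The third water-loaded duct of day 4 lay well above the other later ducts. Diras3 fell by 2.66 (SE 0.48), 6.34-fold, with an edgeR adjusted p of 0.0127. Without that day 4 duct the step was -3.44 (edgeR adjusted p = 0.000281). Without the second day 1 duct it was -2.63 (edgeR adjusted p = 0.0913), and without the second day 4 duct -2.47 (edgeR adjusted p = 0.0527).

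Scand1 (ENSRNOG00000019987) made the largest step of the 10 in water-loaded rats. Its CPM was 275.3, 711.8 and 435.6 at day 1, 8.878, 13.51, 6.341 and 12.6 at day 2, then 13.04, 16.64 and 49.65 at day 4. Even the highest later duct was several times below the lowest at day 1. Scand1 fell by 4.84 (SE 0.59), 28.7-fold, with an edgeR adjusted p of 0.000331. Control ducts were at 857.4, 416.1 and 174.3 CPM at day 1, 5.43 to 32.64 at day 2 and 15.62 to 65.01 at day 4, a step of -4.27 (SE 0.58). Scand1 was the last gene inside the ranking that chose the set. The next gene outside it, Aldh1a1 at rank 12, an enzyme that makes retinoic acid, had a step of -1.11 in controls and -0.58 in water-loaded rats.

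**Figure D2:**
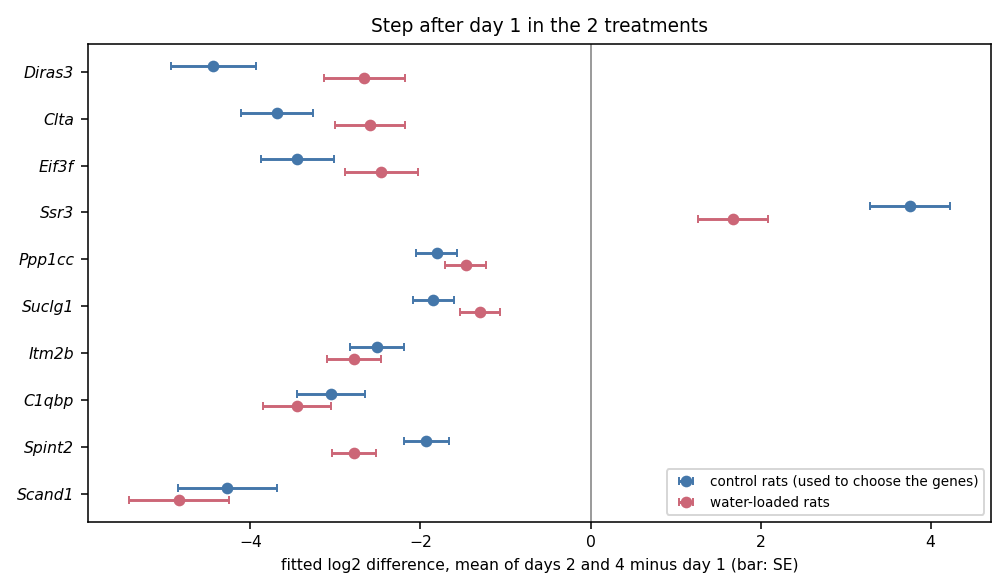
Fitted log2 difference between the mean of days 2 and 4 and day 1 for each of the 10 genes, in control rats and in water-loaded rats, with the SE as bars. All pairs lie on the same side of 0, from -4.84 for Scand1 to 1.68 for Ssr3 in water-loaded rats.

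The water-loaded step was smaller than the control step for 6 genes and larger for Itm2b, C1qbp, Spint2 and Scand1. Signed differences between the steps, water-loaded minus control, ran from -2.08 (Ssr3) to 1.77 (Diras3, SE 0.72), with 5 lower and 5 higher. The Diras3 extreme rested in part on the third water-loaded duct of day 4, without which its water-loaded step was -3.44. At day 1 Diras3 was at 130.0 to 141.8 CPM in water-loaded and 281.7 to 438.6 in control ducts, and Ssr3 at 28.42 to 92.73 against 14.01 to 28.68, ranges that overlap. The day 1 difference of Ssr3, 1.36, was 0.65 without the second water-loaded duct. These differences share their control libraries with the choice of the genes, so they carry no test.

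**Figure D3:**
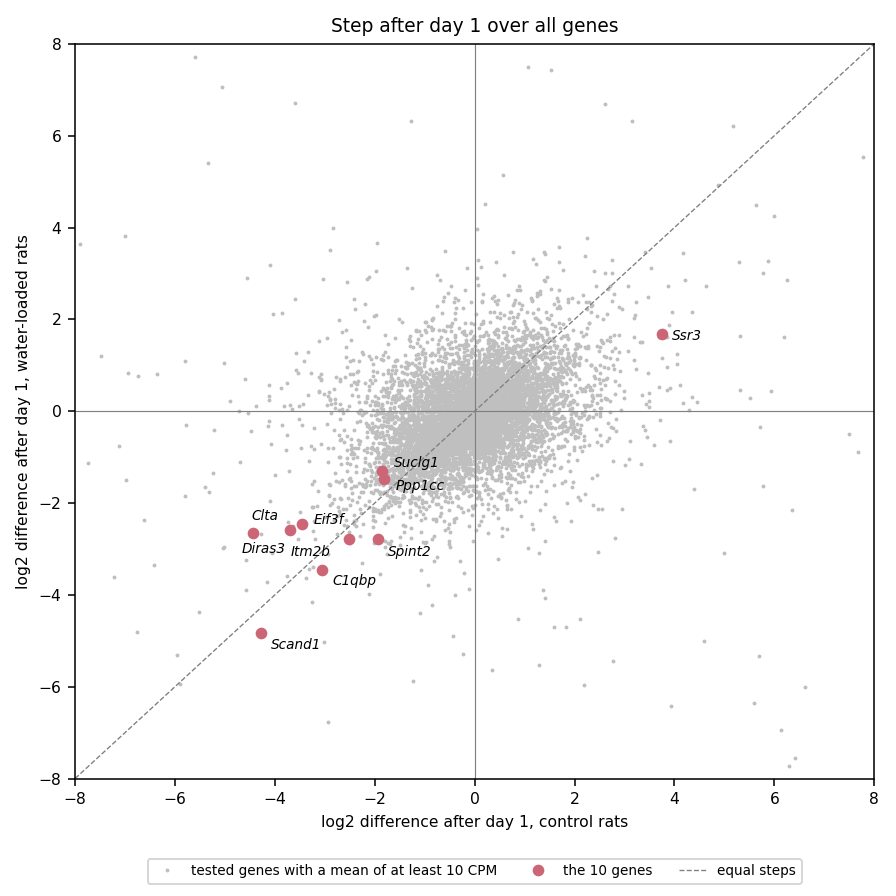
Step after day 1 in water-loaded rats (vertical) against control rats (horizontal), both as fitted log2 differences, for 7722 genes with a mean of at least 10 CPM (grey) and the 10 genes (named); 25 genes lie outside the axes. The 9 genes that fell lie in the lower left and Ssr3 in the upper right, and the dashed line marks equal steps.

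Taken separately, the later days gave fewer calls. From day 1 to day 2 in water-loaded rats 7 of the 10 genes fell by edgeR's test, against 27 genes or 0.187% of all those tested (0.138% lower). These were Scand1 (-5.52, edgeR adjusted p = 0.00287), Diras3 (-3.41, 0.0166), C1qbp (-3.05, 0.0101), Clta (-3.0, 0.0154), Spint2 (-2.93, 0.000167), Eif3f (-2.59, 0.0401) and Itm2b (-2.58, 0.00585). Ppp1cc had -1.33 (edgeR adjusted p = 0.0511), Ssr3 1.64 (0.135) and Suclg1 -0.66 (0.307). This count was 2 without the second water-loaded duct of day 1 and 3 without water-loaded duct 1, 3 or 4 of day 2. It was 0 without the day 2 libraries numbered 3 and 4, 1 (Spint2) with detected genes in the model, 2 (Spint2 and Scand1) with proximal tubule markers, and 4 with the replicate number as a block, which lost Diras3, Clta and Eif3f.

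From day 1 to day 4 in water-loaded rats 6 of the 10 genes fell, against 35 genes or 0.242% of all (0.214% lower). They were Scand1 (-4.16, edgeR adjusted p = 0.0332), C1qbp (-3.85, 0.00687), Itm2b (-2.98, 0.00687), Spint2 (-2.63, 0.0039), Suclg1 (-1.93, 0.0102) and Ppp1cc (-1.60, 0.0305). Eif3f had -2.33 (edgeR adjusted p = 0.070), Clta -2.19 (0.0743), Diras3 -1.91 (0.187) and Ssr3 1.72 (0.107). The third duct of day 4 held the highest of the 7 later water-loaded values for 6 of the 10 genes, and leaving it out exchanged 3 of the 6 calls for 3 others. Diras3 (-3.45, edgeR adjusted p = 0.0241), Clta (-3.10, 0.0471) and Eif3f (-3.25, 0.0471) then passed, while Scand1 (-5.02, 0.057), Ppp1cc (-1.70, 0.113) and Suclg1 (-1.81, 0.0708) did not. The count was 0 without the first or the second water-loaded duct of day 4 and 3 without the second of day 1.

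Between day 2 and day 4 in water-loaded rats, 0 of the 10 genes and 0 of all genes (0.0%) were called by edgeR. At an unadjusted p under 0.05 there were 700 genes, and DESeq2 called 78 and limma-voom 1. The 10 genes ran from -1.27 (Suclg1) to 1.5 (Diras3) in this comparison. The other 2 day 4 values of Diras3, beside the 82.91 CPM of the third duct, lay within its day 2 range. The missing calls do not show that the levels were equal at the later days.

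Within each day, the difference between water-loaded and control ducts is given as values, since its control libraries helped to choose the genes. At day 1 the fitted log2 differences, water-loaded minus control, ran from -1.35 (Diras3, SE 0.61) to 1.36 (Ssr3, SE 0.45), and 9 of 10 were below 0. At day 2 they ran from -0.91 (Spint2, SE 0.28) to 0.41 (Suclg1, SE 0.26). At day 4 the range was -0.97 (C1qbp, SE 0.50) to 1.06 (Diras3, SE 0.60). The Diras3 value rested on the third water-loaded duct, at 82.91 CPM, and was -0.46 without it. Spint2 was lower in every water-loaded than in every control duct at both later days. The ranges were 429.6 to 571.9 against 862.7 to 1012 CPM at day 2 and 547.2 to 761.9 against 794.8 to 1573 at day 4. The share of all genes separated like this was not counted. Over all genes edgeR called 0 at each day (0.0%), with 2254, 757 and 1045 genes at an unadjusted p under 0.05 on days 1, 2 and 4. DESeq2 called 1132, 77 and 319 genes on those days and limma-voom 2, 20 and 0.

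Per unit of length the order of the 10 genes changed with the step. In water-loaded ducts at day 1 the mean FPKM was 8004 for Itm2b, 2541 for Spint2, 575.4 for Clta, 540.4 for Scand1, 488.2 for C1qbp, 487.4 for Eif3f, 409.4 for Suclg1, 268.5 for Ppp1cc, 210.9 for Diras3 and 17.19 for Ssr3. Neighbours from Clta (SD 48.92) to Suclg1 (SD 49.79) in this order, and Ppp1cc and Diras3, lay within about their spread. Over the 7 later ducts Itm2b (1528 ± 267.3, SD) and Spint2 (472.1 ± 119.4) were still first, followed by Suclg1 (236.4 ± 88.57). Scand1 went from place 4 to the last (25.64 ± 23.47), within the spread of Diras3 (43.01 ± 54.29). Ssr3 went from the last place to place 7 (72.07 ± 17.89). Clta (120.8 ± 97.59), Ppp1cc (116.1 ± 19) and Eif3f (113.7 ± 67.94), which lay between, did not differ beyond their spread, nor did Ssr3 and C1qbp (61.12 ± 22.47).

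The 10 lists of genes that work with these proteins, 1 list per protein, held 150 other genes, of which 143 were tested. Of these, 60 had a higher and 83 a lower fitted level after day 1 in water-loaded rats, and edgeR called 5, or 3.50%, with 2 higher and 3 lower. Over all genes tested 0.829% were called. The median step was -0.12 over the 143 and 0.04 over all genes tested. The lists were written with earlier results of these data known, so their counts describe them and no more. The count of 5 was 0 without the first or the second water-loaded duct of day 4 and 9 without the first control duct of day 1.

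The lists for Spint2, Itm2b, Clta and Ssr3 held 1 called gene. Of 13 membrane serine proteases and inhibitors 6 were higher and 7 lower, with 0 called. The smallest p there was that of Epcam, an adhesion protein, with -0.94 (SE 0.37, edgeR adjusted p = 0.214). Of 13 genes of the Itm2 family and amyloid precursor processing 1 was called: Ncstn, nicastrin of the gamma-secretase complex, rose from 9.81 ± 8.136 (SD, n = 3) to 90.7 ± 39.33 CPM (n = 7), a log2 difference of 3.20 (SE 0.63, edgeR adjusted p = 0.0222). Of 18 genes of the clathrin coat and its adaptors 6 were higher and 12 lower, with 0 called. Ap2s1, the sigma subunit of the AP-2 adaptor, was at 217.4 CPM at day 1 and 126.7 later (-0.80, edgeR adjusted p = 0.0717). Of 19 genes of the translocon and signal recognition, 5 were higher and 14 lower, the opposite direction to Ssr3 for most, with 0 called. Srp14, of the signal recognition particle, had 1.77 (SE 0.55, edgeR adjusted p = 0.117).

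Among mitochondrial partners 2 of 18 genes of the mitochondrial ribosome and matrix protein control were called. Mrps6, a protein of the small mitochondrial ribosomal subunit, fell from 333.2 ± 50.2 (SD, n = 3) to 137 ± 40.45 CPM (n = 7), by 1.35 (SE 0.29, edgeR adjusted p = 0.0358). Hspa9, the matrix Hsp70 chaperone, rose from 43.67 ± 13.48 to 134.1 ± 30.16 CPM, by 1.57 (SE 0.34, edgeR adjusted p = 0.037). The 2 called genes thus moved in opposite directions. Of 16 genes of the tricarboxylic acid cycle 9 were higher and 7 lower, with 0 called. Sdhd is a membrane subunit of succinate dehydrogenase, the enzyme after succinate-CoA ligase. It was at 57.68 ± 25.19 CPM at day 1 and 456.3 ± 269.8 later (3.00, SE 0.83, edgeR adjusted p = 0.0771), against the direction of Suclg1. With detected genes in the model the Sdhd step was 0.64 (edgeR adjusted p = 0.965). Without the day 2 libraries numbered 3 and 4 it was 1.89.

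The other lists also held few calls. Of 13 rows for translation initiation factor 3 subunits (Eif3h on 2 gene IDs) 5 were higher and 8 lower, and 0 were called. Eif3k came closest with -1.11 (SE 0.33, edgeR adjusted p = 0.103). Of 14 genes of protein phosphatase 1 only Ppp1r14b, an inhibitor of the phosphatase, was called, and it fell from 105.7 ± 28.95 (SD, n = 3) to 32.92 ± 8.963 CPM (n = 7), by 1.68 (SE 0.37, edgeR adjusted p = 0.0383). Of 11 small GTPases near Diras3 only Rheb, the activator of the mTOR complex 1 kinase, was called, from 416.2 ± 145.6 to 188.4 ± 46.67 CPM (-1.13, SE 0.25, edgeR adjusted p = 0.0383). Of 10 SCAN and zinc finger factors 0 were called, and Zscan21 had the smallest p with 1.42 (SE 0.93, edgeR adjusted p = 0.477).

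**Figure D4:**
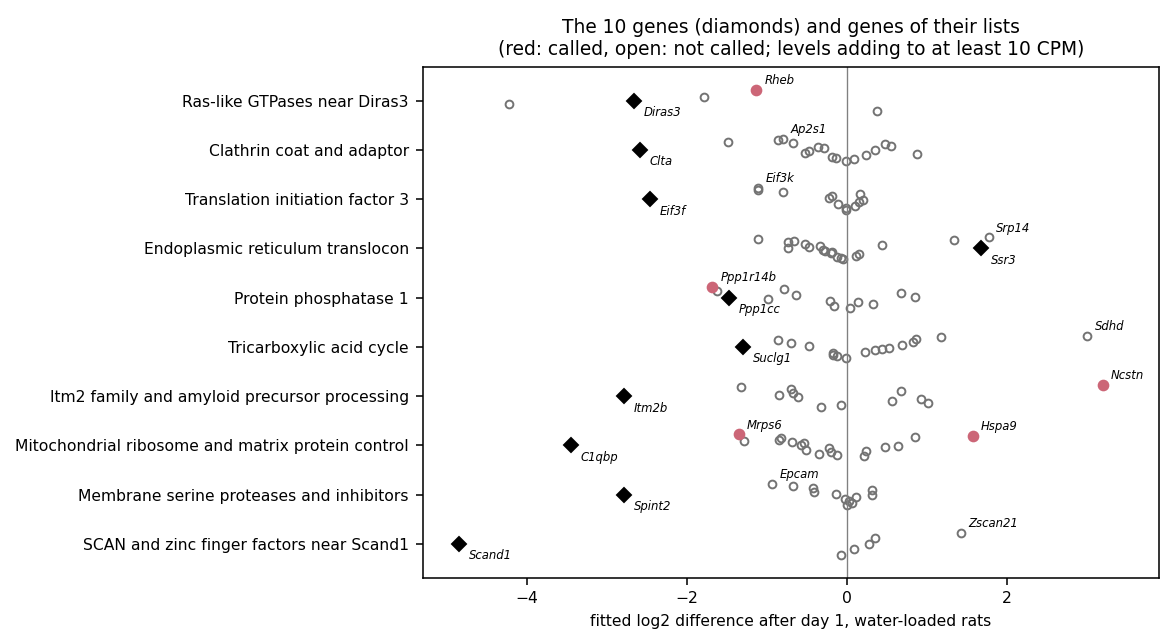
Fitted log2 difference after day 1 in water-loaded rats for the 10 genes (diamonds) and the genes of their lists (circles, 1 row per list; red where called by edgeR, open where not; genes whose day 1 and later means add to at least 10 CPM). Listed genes lie on both sides of 0 in every row, some of them beyond the gene of that row (Srp14 beyond Ssr3, Ppp1r14b beyond Ppp1cc), and Ncstn, Hspa9, Mrps6, Ppp1r14b and Rheb are those called.

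The 10 genes were compared with their mean profile over the 20 libraries. Each gene's log2 CPM was standardised, Ssr3 with its sign turned, and averaged. The Pearson correlation of the single genes with this mean ran from 0.84 (Suclg1) to 0.97 (Clta, Itm2b and C1qbp), and was -0.85 for Ssr3. These points share the step by which the genes were chosen, and the libraries differ in detected genes, so the values are a description. Outside the set, and among genes with a mean of at least 10 CPM, the closest were Endog (0.95), a mitochondrial nuclease, Raly (0.95), an RNA-binding protein of the hnRNP family, and Tmem160 (0.93), a membrane protein. In water-loaded ducts Tmem160 was at 212.1 ± 102 (SD, n = 3) CPM at day 1 and 11.79 ± 4.066 later (n = 7). Endog was at 84.6 ± 36.23 and 17.29 ± 5.756, and Raly at 472 ± 211.7 and 79.1 ± 40.9.

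The genes most opposed to the profile followed Ssr3. They were Slbp (-0.94), the histone mRNA stem-loop binding protein, Cd9 (-0.93), a tetraspanin, and Tmtc4 (-0.93), a transmembrane protein with TPR repeats. Cd9 had the highest level of these, at 278.3 ± 14.53 CPM (SD, n = 3) at day 1 and 792 ± 167.7 later (n = 7) in water-loaded ducts. Slbp was at 4.225 ± 4.76 and 83.27 ± 17.56. Tmtc4 was at 0.4898 ± 0.6784 and 22.74 ± 6.109. These 6 genes were found by their likeness over the same libraries, so their steps carry no test.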

How the data were processed

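Cortical collecting ducts from 20 rats in 6 groups were profiled. Per the labels' protocols, cDNA was made from the lysed tubules with an amplification protocol for single cells. The submitters' processing notes name Trimmomatic 0.32, STAR 2.4.0.1, SAMtools, HTSeq and the genome build rn6. For settings, annotation and strand use, nothing is given in the sources used here. Without strand, reads of overlapping antisense genes cannot be told apart. The count table deposited by the authors holds whole reads per Ensembl gene. Its 5 lines without a gene (31.45% to 35.61% of counts, mostly reads with more than 1 place to map, 21.32% to 26.92%) were left out, and genes with near-identical copies are uncertain. The deposited FPKM values are the same counts rescaled per length and depth: of 13538 genes with at least 50 counts in 2 libraries, 0 had an implied length varying by more than 0.1%.

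Here R 4.3.3 and edgeR 4.0.16 were used: filterByExpr on the groups (14472 genes kept), TMM factors (CPM are counts on the library size times this factor), 1 mean per group over all 20 libraries, and quasi-likelihood tests. The step is the mean of days 2 and 4 minus day 1. Alternatives used DESeq2 1.42.0 and limma 3.58.1. The code was tested on simulated data with large changes and less spread than these libraries have. That checks the code and not the power of the tests at the real spread. Members and lists were chosen with earlier results of these data known. Named besides the 10 genes were, per list, up to 2 called genes with the smallest p (where none was called, the 1 with the smallest p), and the 3 genes per direction most correlated with the mean profile. Other cell markers were named where a result turned on them, and Aldh1a1 as the first gene outside the ranking. Replicate numbers do not pair days: same-numbered libraries of different days correlated at -0.077 to 0.088 in their deviations from group means. Reads were amplified and carry no molecular identifiers, so depth alone overstates the precision of counting. Each library is a separate rat per the labels, so p-values rest on the spread between libraries within groups. That spread joins differences between rats with those of dissection, amplification and library making, which cannot be told apart.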

Additional observations from a re-analysis of the deposited data

How the results depend on the processing

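All 330 values of the 10 genes under the alternatives kept the direction of the reported step in water-loaded rats. The count of the 10 called there, 9, ran from 6 to 10 when 1 library was left out, and was 4 with detected genes as a covariate. The count over all genes, 120, ran from 13 (without the second water-loaded duct of day 1) to 338 (without the first control duct of day 1). It was 1194 by DESeq2, 259 by limma-voom, 287 with a mean of at least 5 CPM, 198 and 234 by limma on log2(FPKM + 1) and log2(FPKM + 0.1), and 251 with only the 10 water-loaded libraries. It was 8 with detected genes and 14 with proximal tubule markers as a covariate, 34 without both day 1 libraries that stood apart and 50 without the day 2 libraries numbered 3 and 4. The median over all genes, 0.04, was 0.32 by limma-voom and 0.23 and 0.48 on the 2 FPKM scales.

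For day 2 against day 1 the 7 called genes became 2 to 8 without 1 library, 1 with detected genes, 2 with proximal tubule markers and 0 without the day 2 libraries numbered 3 and 4. For day 4 against day 1 the 6 became 0 to 7 without 1 library, 10 by DESeq2 and 3 with detected genes. DESeq2 called 892 of all genes there, against 35 by edgeR. For these 2 comparisons the counts over all genes under the other alternatives are not given here. For day 4 against day 2 the 10 genes had 0 calls without any 1 library and 1 by DESeq2, and over all genes 0 to 1 without 1 library, 78 by DESeq2, 1 by limma-voom and 28 without the day 2 libraries numbered 3 and 4. The control step over all genes, 748, ran from 67 (without the first control duct of day 1) to 1053 without 1 library. It was 2331 by DESeq2, 117 with only control libraries, 340 with detected genes, 224 without the 2 day 1 libraries and 180 without the day 2 libraries numbered 3 and 4. The listed partner genes, 5 called, ran from 0 to 9 without 1 library, and gave 13 by DESeq2, 0 with detected genes, 1 with proximal tubule markers, 1 without the 2 day 1 libraries and 0 without the day 2 libraries numbered 3 and 4. Where libraries were left out, fewer samples carried the test, and the cause of the other shifts was not tested.

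Single calls in the water-loaded step were lost with detected genes as a covariate for Diras3 (adjusted p = 0.171 in edgeR), Clta (0.170), Eif3f (0.315), Ppp1cc (0.170) and Suclg1 (0.364), and with proximal tubule markers for Diras3 (0.0509), Eif3f (0.0886) and Suclg1 (0.10). With the replicate number as a block, which does not pair the rats across days, day 2 against day 1 gave 4 of the 10 genes, the control step 381 genes and the partner lists 2. Same-numbered control and water-loaded libraries correlated at 0.147 to 0.236 on day 2, -0.059 to 0.06 on day 1 and -0.091 to -0.004 on day 4. Depth, at 0.0134 to 0.0298 CPM per count, limited none of the 10 genes.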

Other observations

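Most of the 10 genes were short, and all 10 stood high by mean level. Their lengths implied by the 2 deposited tables ran from 599 bases (Diras3) and 764 (Scand1) to 2220 (Suclg1) and 2553 (Ssr3), and 8 of 10 were under the median of 2068 bases over 13902 tested genes with a length. Ssr3, the gene that went up, was the longest of the 10. Over all genes the median step in water-loaded rats was -0.10, -0.04, 0.09 and 0.15 over 4 equal groups of genes from the shortest to the longest, and -0.10, -0.05, 0.15 and 0.22 in control rats. Their part in the steps of the 10 genes was not tested. By mean CPM 9 of the 10 were above the 90th percentile of tested genes, and Diras3 was at percentile 84.7. Their spread within groups, from 0.312 (Ppp1cc) to 0.98 (Scand1) as the SD of log2 CPM, was under the median of 1.44 over tested genes. A ranking by p favours abundant genes with little spread, so level and spread here are partly set by the choice.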
